A study of Mus musculus with 98 samples.

Results

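After 8 h in SLM medium, 538 m6A regions carried a peak in both replicate lists of the treated TBLC (totipotent blastomere-like cells) and in neither list of the culture kept in 2MYCP medium. They are 538 of the 7778 regions found in both 8 h lists (6.92%), and the peak lists of the whole series merge into 21050 regions. Peaks on one strand were joined into a region wherever they shared 1 base or more, and a region counts as gained if it holds a peak of TBLC_PlaB- replicates 1 and 2 and touches no same-strand peak of TBLC_Ctrl replicates 1 or 2. The members were chosen by the presence or absence of peaks in these 4 lists, so everything drawn from them describes the choice and is not tested.

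Mouse TBLC were profiled in 3 states with 2 m6A immunoprecipitations each. TBLC_Ctrl was kept in 2MYCP medium, TBLC_PlaB- had been in SLM for 8 h, and diffTBLC had been in SLM for 3 days. The labels give no strain, genotype or further treatment for these groups, do not spell out the media, and do not say whether the "PlaB-" in the name is a change beyond the move to SLM. Nor do they say that replicates are separate cultures, so agreement between lists may be technical. Total RNA was the starting material for an anti-m6A antibody of New England Biolabs, and the input libraries were not analysed here. Each list holds between 10143 and 12297 peaks, read depth behind them is unknown, and every peak carries the authors' own score, on an unstated scale that starts at 20 in each list. A peak also needs its transcript to be present, and the part of transcript level in gains and losses was not tested. Positions are in build mm39, given 1-based. Gene models of that build were not used here, so regions are named by position.

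N6-methyladenosine (m6A) is placed on nascent RNA by a writer complex with METTL3 as its catalytic subunit, and is common near stop codons and in 3′ untranslated regions. YTH and IGF2BP proteins read the mark and steer a transcript toward decay or toward stability, and FTO and ALKBH5 can remove it. In pluripotent cells the mark is known for tuning how fast transcripts of cell identity regulators turn over when the cells change state.

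Gained regions resembled lost ones in width and were narrower than regions also found in both TBLC_Ctrl lists. Their median width was 241 bases (150 to 1038), against 244.5 for lost regions. It was 263 for regions also found in 1 TBLC_Ctrl list and 368 for those also found in both. The width enters the rule, since a wider region has more bases on which a TBLC_Ctrl peak can fall. The lower of the 2 TBLC_PlaB- scores had a median of 108.5 in gained regions, 120 in the 1068 regions with a peak in 1 TBLC_Ctrl list and 177 in the 6172 with a peak in both, and the lower TBLC_Ctrl score of lost regions had a median of 92.5. The log2 scores of the replicates correlated with r = 0.63 across the 538 regions, which share the 2 libraries and were chosen for a peak in both. In 529 regions a single peak of one replicate met a single peak of the other. Of the members, 289 were on the plus and 249 on the minus strand.

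**Figure D1:**
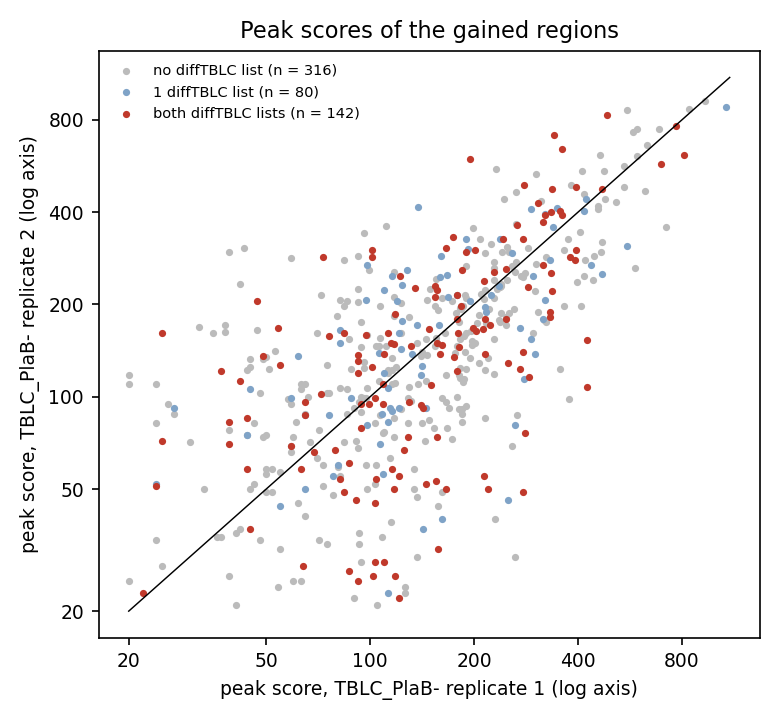
Peak scores of the 538 gained regions in TBLC_PlaB- replicate 1 (x) and replicate 2 (y), both on log axes, 1 point per region, coloured by the number of diffTBLC lists with a peak there; the line marks equal scores. Regions found in both diffTBLC lists (n = 142) are spread over the whole range of scores, from 22 to 764 for the lower score.

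The 8 gained regions with the highest lower score were picked by that score, and their values describe the top of the range. The first was chr14:68323950-68324189 (plus strand), 240 bases wide, with scores of 936 and 921 in TBLC_PlaB- replicates 1 and 2 and no peak in either diffTBLC list. Next came chr3:18063596-18063758 (plus), at 1076 and 878, which was seen again in diffTBLC replicate 1 (284) but not in replicate 2. The nearest same-strand TBLC_Ctrl peak lay 1169281 bases from the chr14 region and 1795259 from the chr3 region. For the rest of the 8 this distance was shorter, from 229 bases at chr8:85403139-85403402 to 24934 at chr4:152040020-152040175. A diffTBLC peak lay 461 bases from the chr14 region.

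Of the other 6, 4 had no diffTBLC peak. They were chr2:160524453-160524611 (plus; 838 and 868), chr2:119535872-119536026 (plus; 687 and 747, with a TBLC_Ctrl peak on the opposite strand), chr4:152040020-152040175 (plus; 632 and 661) and chr11:53247690-53247999 (plus; 593 and 747). A region on the minus strand with the next highest score and no diffTBLC peak was chr14:54881490-54881790 (591 and 608). The remaining pair did persist: chr8:85403139-85403402 (minus; 770 and 764) had scores of 88 and 117 in the diffTBLC lists, and chr11:58015823-58016088 (minus; 809 and 614) had 127 and 115. Whether the lists share a score scale is not stated, so these values show that a peak was called and not how much it changed.

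The rule has sharp borders. Just inside it, 3 members had a score of 20 in TBLC_PlaB- replicate 1, the lowest the lists hold: chr11:60080139-60080438 (110 in replicate 2), chr19:45771599-45771844 (25) and chr4:139921945-139922356 (118). Just outside it, chr16:90550313-90550606 (81 and 44) shared 6 bases with a single TBLC_Ctrl peak of score 21, chr11:101324862-101325163 (140 and 221) shared 20 bases with one of score 93, and chr16:17579519-17579989 (30 and 96) shared 22 bases with one of score 25. Among all 1068 regions that failed through 1 TBLC_Ctrl list, the TBLC_Ctrl peak had a median score of 135.5 and was under 50 in 120 regions (11.2%).

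The mirror rule, applied to regions of both TBLC_Ctrl lists that touch no TBLC_PlaB- peak, gave 744 of 8107 regions (9.18%). The TBLC_Ctrl lists are the longer ones, with 11117 and 10496 peaks against 10143 and 10443, so no direction is read from these counts. Regions called in a single 8 h list and in no TBLC_Ctrl list outnumbered the gained ones, at 934 for replicate 1 and 1080 for replicate 2. Leaving out any 1 of the 4 lists raised the number of gained regions to between 993 and 1646, with 1646 and 1499 without TBLC_PlaB- replicate 1 or 2 and 1151 and 993 without TBLC_Ctrl replicate 1 or 2. The lost counts were then 1306 and 1404, and 1925 and 2209, so the gained count was the higher one without either TBLC_PlaB- list and the lower one without either TBLC_Ctrl list. Each count comes from the 4 lists together and has no replicate of its own, so the difference between gained and lost was not tested.

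The diffTBLC lists took no part in the choice. They show which gained regions share 1 base or more with a same-strand peak called after 3 days. A peak was present in both diffTBLC lists at 142 of 538 gained regions (26.4%), in 1 list at 80, and in neither at 316 (58.7%). When 50% of the region had to be covered in each list, the share in both was 19.9%. The 2 diffTBLC libraries gave nearly the same share, 34.2% for replicate 1 and 33.5% for replicate 2 (mean 33.8% ± 0.53, SD, n = 2). Among all 7778 regions of the 8 h state the share in both lists was 60.2%, and the share in at least 1 was 72.9% against 41.3% of gained regions.

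The share found at 3 days differed between classes of region. Regions that also had peaks in both TBLC_Ctrl lists were found in both diffTBLC lists in 4114 of 6172 cases (66.7%), and those with a peak in 1 TBLC_Ctrl list in 424 of 1068 (39.7%). Lost regions, absent at 8 h, had a peak in both diffTBLC lists in 140 of 744 cases (18.8%). By replicate the shares for lost regions were 26.2% and 23.1%, both below the 34.2% and 33.5% of gained regions. Regions in a single 8 h list without a TBLC_Ctrl peak stood lower still, at 14.7% for replicate 1 and 15.6% for replicate 2. The classes differ by rule in how many TBLC_Ctrl and TBLC_PlaB- lists hold a peak, and the share was lower where fewer did. Only gained and lost regions have peaks in equally many of these lists. The lower share of gained regions beside shared regions, or all regions of the 8 h state, is therefore not read as particular to gains. How much of it comes from the rule was not tested. The regions of a class share the same 2 diffTBLC libraries, so none of these differences was tested.

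**Figure D2:**
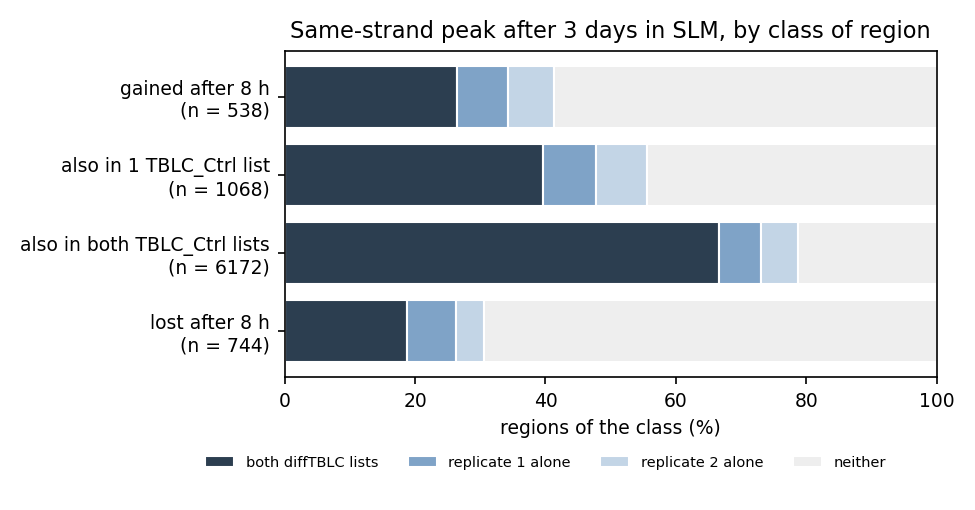
Share of regions (x, %) with a same-strand peak in both diffTBLC lists, in replicate 1 or 2 alone, or in neither, for the 4 classes on the y axis. The dark part shrinks from 66.7% for regions in both TBLC_Ctrl lists to 26.4% for gained and 18.8% for lost regions.

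Among gained regions the share found at 3 days was similar at low and high scores. In bands of the lower TBLC_PlaB- score, 26.5% of gained regions from 20 to under 50 were in both diffTBLC lists, 24.7% from 50, 27.8% from 100, 29.1% from 200 to under 400 and 18.5% at 400 and above (n = 98, 158, 169, 86 and 27). Regions also in both TBLC_Ctrl lists instead went from 41.7% in the lowest band to 52.8%, 64.3%, 75.5% and 81.9% in the highest. In each of the 5 bands the gained regions had the lower share of these classes. The bands match the score but not the number of lists with a peak, so this too is not read as particular to gains. The bands also set gained against lost regions: the gained share was the higher one in 4 of 5 bands, and at 400 and above it was 18.5% against 28.1% (9 of 32 lost regions, by their TBLC_Ctrl scores). Of 27 gained regions at 400 and above, 5 were in both diffTBLC lists and 19 in neither.

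**Figure D3:**
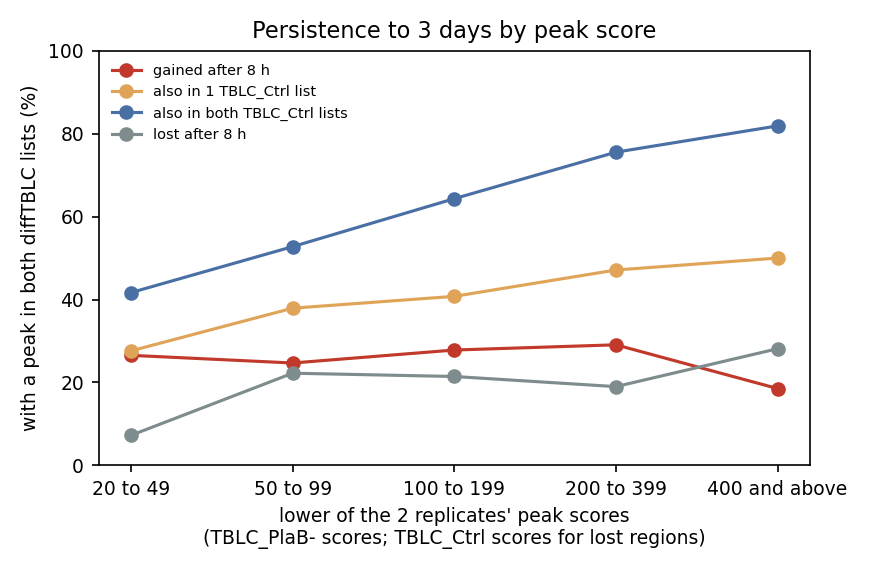
Share of regions with a peak in both diffTBLC lists (y, %) by band of the lower replicate score (x), 1 line per class. The line of regions in both TBLC_Ctrl lists goes from 41.7% to 81.9%, while that of gained regions stays between 18.5% and 29.1%.

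Narrow gained regions had higher scores than wide ones and a lower share at 3 days. Those under 200 bases made up 202 of 538 (37.5%, against 13.8% of regions in both TBLC_Ctrl lists), with a median lower score of 157.5, and 46 of them (22.8%) were in both diffTBLC lists. Regions from 200 to under 300 bases had a median score of 88.0 and a share of 26.3%, and the 165 of 300 bases or more had 79.0 and 30.9%. In regions of both TBLC_Ctrl lists the share also went up with width, from 46.8% to 53.0% and 75.3%. The width enters this share as well, since a wider region has more bases on which a diffTBLC peak can fall. How much of the rise comes from that was not tested. These shares come from single sets of regions over the same libraries and were not tested.

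The 8 members with the highest lowest score over the TBLC_PlaB- and diffTBLC lists had a called peak at 8 h and at 3 days in each replicate. At chr10:62740717-62741248 (minus) the scores were 484 and 829 at 8 h and 417 and 293 at 3 days, in replicates 1 and 2. At chr8:43749342-43749532 (plus) they were 393 and 279, then 388 and 439, and at chr2:180236248-180236622 (plus) 280 and 491, then 277 and 385. All 3 held a score of 277 or more in each of the 4 lists.

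The chr8 site also had opposite-strand peaks in both TBLC_Ctrl and both TBLC_PlaB- lists. Whether its strand is assigned rightly was not tested. The others were chr8:125608298-125608719 (plus), chrX:104947737-104947918 (minus), chr3:131885272-131885476 (plus), chr16:45599689-45599889 (minus) and chr11:49552634-49552805 (plus), where the lowest of the 4 scores ran from 276 down to 214. The last of these had 214 and 238 at 8 h and 761 and 472 at 3 days. Over all 142 members in both diffTBLC lists, the diffTBLC scores had medians of 163 in replicate 1 (24 to 883) and 160 in replicate 2 (20 to 796).

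Regions were also counted from the 3-day state, among those without a TBLC_Ctrl peak. Of 3030 diffTBLC regions in both replicates without a TBLC_Ctrl peak, 152 (5.02%) already had a peak in both 8 h lists, 292 (9.64%) in 1 and 2586 (85.3%) in neither. The 152 are counted over regions built from the diffTBLC lists and the 142 over regions built from the 8 h lists. Leaving out TBLC_Ctrl peaks also leaves out most of the 8 h state, where 6172 of 7778 regions have peaks in both TBLC_Ctrl lists. The share among all diffTBLC regions was not computed. The 5.02% has no replicate of its own and was not tested.

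The 142 members in both diffTBLC lists and the 316 in neither had similar scores in the 8 h lists but differed somewhat in width. Their lower scores had medians of 109.5 (22 to 764) and 99 (20 to 921), and 30 of the 142 and 66 of the 316 scored 200 or more. Their median widths were 255.5 and 231 bases, and 51 of the 142 and 79 of the 316 had 300 bases or more. A wider region has more bases on which a diffTBLC peak can fall, and the difference in width was not tested. The 80 members in 1 diffTBLC list had a median lower score of 122. Of the 316, 11 had a diffTBLC peak on the strand within 200 bases and 63 within 1000, while for 176 (55.7%) the nearest was at least 10000 bases away.

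Distances from gained regions to peaks of the other state are set beside those of lost regions. No such distances were computed over all regions, so nothing particular to gained regions is read from them. The nearest TBLC_Ctrl peak on the strand was under 200 bases away for 26 regions (4.83%), from 200 to under 1000 for 83 (15.4%), from 1000 to under 10000 for 126 (23.4%) and 10000 or more for 303 (56.3%). The median distance was 16.6 kb, and from lost regions to the nearest TBLC_PlaB- peak it was 11.8 kb, with 386 of 744 (51.9%) at 10000 bases or more. Whether a neighbouring peak lies on the same transcript was not tested. The share found in both diffTBLC lists went up with distance, from 3 of 26 (11.5%) and 16 of 83 (19.3%) to 32 of 126 (25.4%) and 91 of 303 (30.03%). For lost regions 9 of 45 were in both lists in the nearest bin, and the shares in the others were 13.8%, 18.9% and 20.5%. The nearest bin of gained regions holds few regions, and the trend was not tested.

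**Figure D4:**
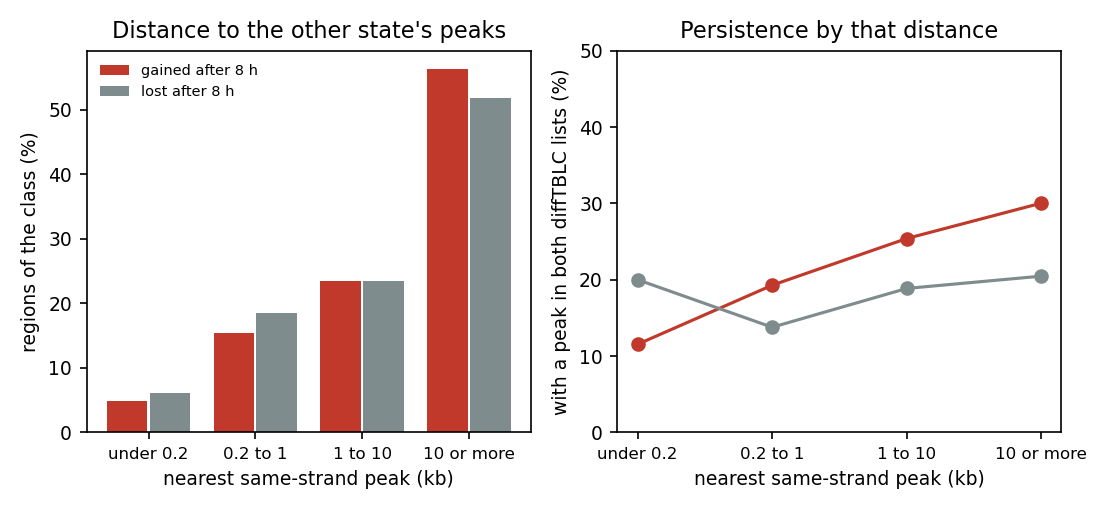
Left, share of gained and lost regions (y, %) by distance to the nearest same-strand peak of the other state (x, kb); right, share of each bin with a peak in both diffTBLC lists. Of the gained regions, 56.3% are 10 kb or more away, and their share in diffTBLC goes from 11.5% to 30.03% with distance.

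Some gained regions lay near each other. With members of the same strand joined up to 10 kb apart, the 538 fell into 522 loci, of which 507 held 1 region and 15 held several (31 regions, 5.76%). For the 744 lost regions this share was 9.68%, and for all 7778 regions of the 8 h state it was 43.0%; the sets differ in size, and nothing particular to gained regions is read from these shares. The largest was chr11:119325494-119332821 (plus), with 3 regions over 7.33 kb, none of them in both diffTBLC lists and the nearest TBLC_Ctrl peak 210 bases away. Loci of 2 regions with both members in both diffTBLC lists were chr15:78850656-78851456 (plus) and chr16:90571057-90571844 (minus). Both chr15 members had the same diffTBLC scores, 371 in replicate 1 and 477 in replicate 2, so 1 peak per list may span them. These loci were chosen after their values were seen. Of the 538, 5 lay within 1 kb of a lost region and 23 (4.28%) within 10 kb, and of all 7778 regions of the 8 h state 137 (1.76%) and 378 (4.86%) did, so the share within 10 kb was near that of all regions.

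Gained regions were found on all chromosomes from 1 to 19, on X and on Y. Chromosome 11 held 59, or 9.25% of its 638 regions of the 8 h state, and chromosomes 7 and 17 had the lowest shares, 5.36% (33 of 616) and 5.35% (24 of 449), around the 6.92% of all. On X 11 of 167 were gained, and on Y 1 of 11. A TBLC_Ctrl peak on the opposite strand overlapped 28 gained regions (5.2%), beside 5.31% of regions in both TBLC_Ctrl lists and 3.65% of those in 1. A TBLC_PlaB- peak on the opposite strand overlapped 17 lost regions (2.28%), and the difference was not tested. Without the 28, 510 gained regions remained.

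Expression of the m6A machinery was set beside these counts, using total RNA of the TBLC_Ctrl and TBLC_PlaB- arms of an actinomycin D course at 0 h (n = 2 each, 14911912 to 17992960 counts per library). The labels do not tie these libraries to the immunoprecipitated ones. The TBLC_PlaB- columns were matched by the arm left without columns of its own, and the p-values rest on how far libraries of a group vary, which may be technical. None of 21 writer, eraser and reader genes passed edgeR's quasi-likelihood test at an adjusted p of 0.05, where 177 of 14107 genes did (1.25%), with 0.78% higher and 0.475% lower in TBLC_PlaB-. In such bulk RNA, fewer cells of a type and less RNA per cell cannot be told apart. Of the 21, 2 had an unadjusted p under 0.05, and DESeq2 called 0 of the 13 it gave an adjusted p. The list's median log2 difference was 0.00, as it was over all genes, and the members ranged from -0.06 to 0.11.

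The writer scaffold gene Virma measured 67.2 and 62.3 CPM (counts scaled to library size) in TBLC_Ctrl and 64.9 and 66.2 in TBLC_PlaB-, groups that overlap (log2 difference 0.02 ± 0.045, SE). The catalytic subunit gene Mettl3 was at 35.1 and 34.9 against 37.8 and 33.6 CPM, again overlapping, and the 95% interval of its log2 difference ran from -0.089 to 0.147. Its partner Mettl14 gave -0.05 ± 0.055 and the adaptor gene Wtap -0.01 ± 0.038 on the log2 scale. Zc3h13, which helps keep the complex in the nucleus, had the lowest p of the list: 98.7 and 95.3 CPM in TBLC_Ctrl lay below 105 and 105 in TBLC_PlaB- (0.11 ± 0.039, adjusted p = 0.179 from edgeR).

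Log2 differences of the other writer genes were -0.06 for Mettl16, 0.09 for Rbm15, -0.01 for Rbm15b and -0.01 for Cbll1. The eraser genes Fto (0.07 ± 0.041) and Alkbh5 (0.00 ± 0.042) did not pass either. Among readers, Ythdf1 (-0.02), Ythdf2 (-0.03), Ythdf3 (-0.01), Ythdc1 (0.05) and Ythdc2 (0.10) gave log2 differences of either sign. Igf2bp1 (-0.03), Igf2bp2 (0.03), Igf2bp3 (0.01), Hnrnpa2b1 (-0.02) and Hnrnpc (0.05) did so too. For Ythdc2 the 95% interval was the widest of the list, from -0.103 to 0.295, so differences within it remain compatible with these counts.

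**Figure D5:**
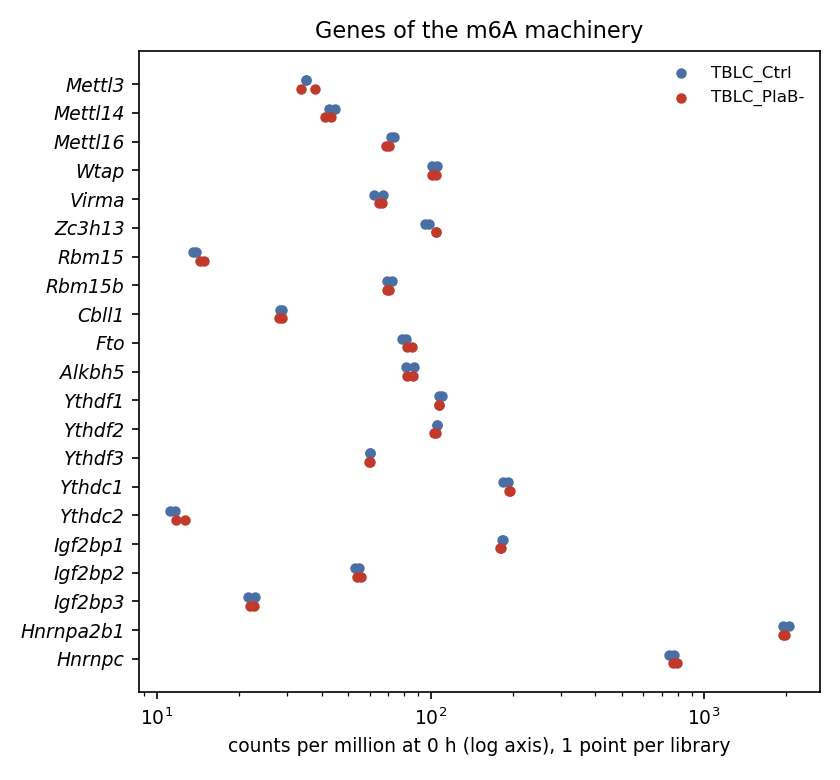
CPM at 0 h (x, log axis) of the 21 genes of the m6A machinery (y), 1 point per library, for TBLC_Ctrl and TBLC_PlaB-. The points of both groups lie close together for each gene, with log2 differences between -0.06 and 0.11.

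Marker genes describe the cells of these libraries. Cleavage-stage markers, among them Zscan4c, Zfp352 and Tcstv3, summed to between 201 and 209 CPM per library, and 0 of 6 passed. None of 10 primitive endoderm, 5 trophectoderm or 5 formative markers passed either, while of 9 pluripotency markers Klf4 passed, with 160 and 167 CPM in TBLC_Ctrl below 186 and 187 in TBLC_PlaB- (0.19 ± 0.032, adjusted p = 2.75e-05, edgeR). Fibroblast or feeder markers, Col1a1 among them, summed to between 815 and 831 CPM in the 4 libraries, with 0 of 8 past the threshold. Over the lists without a call, edgeR gave an unadjusted p under 0.05 to 1 trophectoderm and 1 fibroblast gene. DESeq2 gave an adjusted p to 5 of 8 fibroblast or feeder, 2 of 10 primitive endoderm, 1 of 6 cleavage-stage, 1 of 5 trophectoderm and 0 of 5 formative markers, and called 0 of those, so it says little about these lists. The part of such cells in the peaks was not tested.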

How the data were processed

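The peak lists hold scores of m6A peaks that the authors deposited for each replicate, with strand and position. The peak caller and the score's scale are not given in the sources used here, and peak names show that strands were called apart. Gene tables hold raw counts per symbol that the authors deposited. Per the submitters' processing notes, the build was mm39 and the tools named, without their roles, were STAR 2.7.11b, Subread, DESeq2, FastQC 0.12.1 and Trim Galore. In the count table, columns headed TBLC_S were read as TBLC_PlaB-, the arm without columns of its own.

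Peaks were merged by strand in Python 3.11.15, and both counts of gained and lost regions were checked with bedtools 2.31.1. Counts were tested with edgeR 4.0.16 in R 4.3.3 (TMM, filterByExpr, quasi-likelihood, 16 libraries in 8 groups of arm and time, Benjamini-Hochberg, threshold 0.05). CPM use TMM-scaled totals. DESeq2 1.42.0 was an alternative. The merging and the edgeR fit were tested on simulated data. The members and gene lists were chosen with earlier results of these data known. Regions named are the 8 highest by the lower TBLC_PlaB- score, the 8 highest by the lowest score of 4 lists, the 6 highest in no diffTBLC list, and 3 on either side of the rule, and all m6A machinery genes are given. Gene models and sequence of mm39 were not used here, so no gene is assigned and decay slopes were not fitted.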

Additional observations from a re-analysis of the deposited data

How the results depend on the processing

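The count of gained regions lay between 429 and 543 under all alternatives that kept the 4 lists, and that of lost regions between 561 and 749. Without 1 of the lists, gained regions numbered 993 to 1646 and lost regions 1306 to 2209. The share of gained regions in both diffTBLC lists was 25.8% when the replicates' peaks had to overlap by 50% of each, 27.2% at a score of at least 50 in every list, 27.1% and 28.7% with no TBLC_Ctrl peak within 200 and 1000 bases, 19.9% when 50% of the region had to be covered in each list and 29.2% with a diffTBLC peak within 200 bases. It ran from 19.2% to 33.8% without 1 TBLC_PlaB- or TBLC_Ctrl library. Without diffTBLC replicate 1 or 2, the share in the diffTBLC list that remained was 33.5% or 34.2%. Pairing lists by replicate number (replicate block) gave 543 gained regions, a share of 26.3% and 749 lost regions.

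At 0 h 177 genes passed, against 94 when only the 0 h libraries were fitted and 73 in DESeq2, and from 70 to 207 without 1 library. The lowest counts came without replicate 2 of TBLC_Ctrl (70) and without replicate 2 of TBLC_PlaB- (73), and without replicate 1 of TBLC_PlaB- it was 117. With the replicate number as a block 219 passed. The labels tie no numbers to a shared source, and deviations of same-numbered libraries correlated with r = 0.03 over 9559 genes. In 202 refits of single machinery genes, none passed the threshold. The decay slope alternatives were not run. Depth behind the peaks is unknown, which limits what a missing peak shows.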
